A study of Mus musculus with 6 samples.

Results

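The mouse embryonic stem cells of the line E14TG2a were compared with the cells at the end of their neuronal differentiation, called NC in the sample titles. The comparison was between 4 of the 6 libraries of the series, 2 of mESC and 2 of NC, and took every gene. The remaining 2 libraries, of an intermediate stage, also entered the filter on low values and the fit, where they add to the estimate of spread. Of 46517 gene IDs 20232 passed that filter and were tested. The mESC samples were wild type, untreated cells grown feeder-free on gelatin with serum and the cytokine LIF. The NC samples were wild type cells of the same line with the treatment label neuronal differentiation, made by a published route through cell aggregates and neuronal progenitors (NPC), which form the remaining 2 libraries. The labels do not spell out NC, and they give embryonic stem cells as the cell type at every stage. The last stage that the design text names is glutamatergic pyramidal neurons. All groups come from 1 cell line. Values are TPM, a level per transcript length in which each library has the same total. The description centres on genes that stand in for each other, that is paralogues whose balance differs between the stages, and on genes whose level was the same at both ends.

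Paralogues are genes descended from 1 ancestral gene by duplication, and many encode forms of the same enzyme, motor, transporter or chromatin subunit. In the nervous system a general form is often replaced by one that is mostly made in neurons: the chromatin remodeller BAF exchanges subunits when progenitors leave the cell cycle, the splicing repressor PTBP1 gives way to PTBP2, and E-cadherin of epithelial cells gives way to N-cadherin. Genes of equal level are the other side of the comparison, since housekeeping genes and complexes such as the proteasome serve every cell. The tables give 1 value per gene, so a switch between transcripts of the same gene, such as the M1 and M2 forms of Pkm, cannot be seen in them.

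The libraries held 1.57 to 2.27 Gb of aligned bases by the ratio of coverage to FPKM, and the log2 difference between replicates had an SD of 0.500 in mESC and 0.600 in NC. The labels call the replicates biological without naming separate cultures, so p-values measure the spread between these samples. All 10 markers of pluripotent cells were lower in NC, with summed levels of 6587 and 6448 TPM in mESC and 22.1 and 25.4 TPM in NC, and all 12 neuron markers were higher, at 275 and 344 TPM in mESC and 4966 and 4599 TPM in NC. Of the glutamatergic markers 3 of 5 tested were higher, against 37.8% of all tested genes. One of these, the kinase Camk2a, lost its call without mESC replicate 1 or mESC replicate 2 (limma adjusted p = 0.0999 and 0.132). Another was the vesicular transporter Slc17a6, which both mESC libraries list at 0 and which stood at 28.9 and 21.6 TPM in NC. Slc17a7, the transporter of cortical glutamatergic neurons, stood at 2.86 and 2.07 TPM in mESC and 3.21 and 1.69 TPM in NC. The 4 tested GABAergic markers were also higher (summed 13.99 and 6.17 TPM in mESC, 226 and 259 TPM in NC).

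Markers of other cells differed as well. All 10 fibroblast and smooth muscle markers were higher in NC, with summed levels of 136 and 96.4 TPM in mESC and 1078 and 1177 TPM in NC. Tagln of this list lost its call without mESC replicate 1 or mESC replicate 2 (limma adjusted p = 0.0639 and 0.114). The astrocyte markers summed to 60.8 and 32.2 TPM in mESC, against 1112 TPM in NC replicate 1 and 291 TPM in NC replicate 2, and 3 of the 5 tested were higher. Gfap, a filament protein of astrocytes that was too low to be tested, stood at 0.190 and 0.154 TPM in mESC and 9.72 and 0.598 TPM in NC. All 8 genes of dividing cells were lower in NC, with summed levels of 1517 and 1587 TPM in mESC and 493 and 500.4 TPM in NC, where they were still well above 0. For comparison, 37.8% of all tested genes were higher and 22.1% lower. Of the other lists, 3 of 7 tested oligodendrocyte genes were higher, near that background, and 4 were not called. Both tested microglia genes were higher, at 5.16 and 9.31 summed TPM of their list in NC. Of 5 tested endothelial genes 3 were lower (Tek not without mESC replicate 1 or NC replicate 1, with limma adjusted p = 0.137 and 0.122), and of 6 tested endoderm genes none was called. The part of these cells in the differences described here was not tested. In bulk RNA, fewer cells of a type and less RNA per cell cannot be told apart.

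Most tested genes differed between the ends of the differentiation. Of 20232 genes 12118 (59.9%) passed a limma adjusted p of 0.05, 7656 (37.8%) of them higher and 4462 (22.1%) lower in NC. At least 2-fold differences on the log2(TPM + 1) scale were found for 5874 of the higher and 3025 of the lower genes. The median difference over all genes was 0.31 on the log2 scale and 0.05 after median-of-ratios scaling, which brought the split of calls from 63.2% higher to 52.3% (6276 higher, 5713 lower), and quantile normalization gave 47.2% higher. Each difference is therefore to be read against that shift, and where the scaling ends a call of a named gene this is stated.

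The largest falls were of genes of the pluripotent state. Pou5f1, which encodes the factor OCT4, stood at 1475 and 1891 TPM in mESC, and both NC libraries list it at 0. The others among the 8 largest falls were Dppa5a (1.67 and 0.578 TPM left in NC), Tdgf1 and its processed copy Tdgf1-ps1, whose reads the counting may not separate, Tdh, Zfp42, Trh and Utf1. On the other side stood 3 Hox genes, which pattern the body axis (Hoxb5, Hoxb6 and Hoxd3), the neuronal migration gene Dcx, the axon guidance receptor Robo3, the long noncoding RNA Miat, the neuropeptide Sst and Fabp7. Miat rose from 0.438 and 0.857 TPM to 1019 and 811 TPM (log2 difference 9.12, SE 0.22, limma adjusted p = 6.94e-06). Sst, a peptide of GABAergic interneurons, is listed at 0 in mESC and reached 250.2 and 626 TPM in NC.

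Of 180 listed paralogue families, 176 had at least 2 tested members. In 53 of them (30.1%) at least 1 member was higher and 1 was lower in NC, in 38 all tested members were higher, in 11 all were lower, and in 12 no member passed the test. With 37.8% of all tested genes higher and 22.1% lower, sets of unrelated genes would often hold opposite calls too. The families were not compared with such sets. In 43 families the member with the highest level was the same in both mESC libraries and was another member in both NC libraries. All 43 of these changes came with a called old or new leader: 13 with the old leader lower and the new one higher, 25 with the new leader higher only, and 5 with the old leader lower only. The leader within a library does not depend on scaling, and after median-of-ratios scaling 41 of the 43 still had a called leader, 16 of them both. The share of the new leader was higher in both NC libraries than in both mESC libraries in all 43 families, which the choice of families makes likely. The summed level of these families was over 1.5-fold higher in NC in 25, over 1.5-fold lower in 8, and within 1.5-fold in 10.

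**Figure D1:**
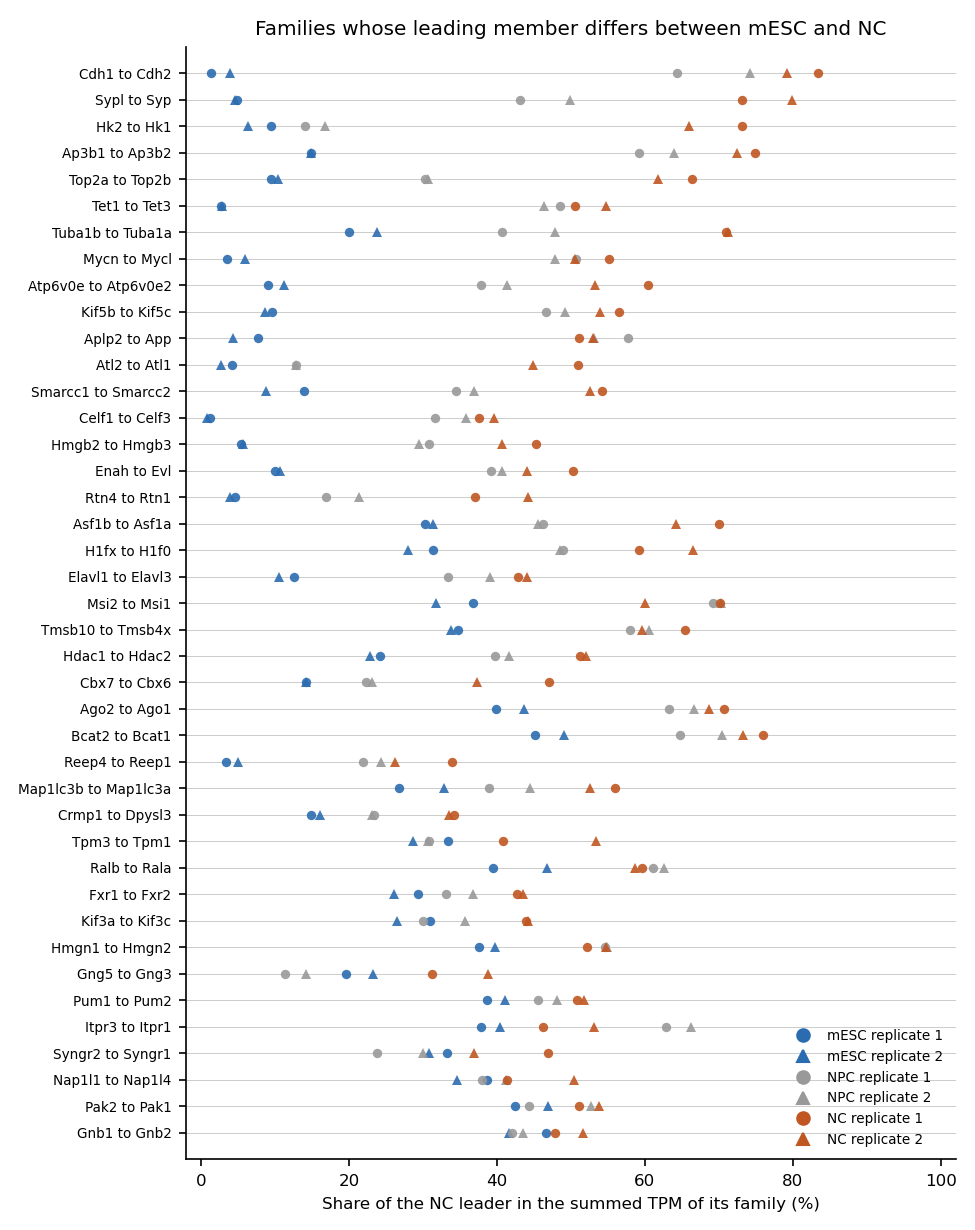
Share of the NC leader in the summed TPM of its family (x axis, percent) for 41 of the 43 families whose leading member differs between mESC and NC (y axis, named as mESC leader to NC leader), with 1 point for each of the 6 libraries (colour for stage, shape for replicate). The mESC points lie to the left of the NC points in all 41 rows, with the widest gap for Cdh1 to Cdh2, and the NPC points lie between them in many rows, as for Top2a to Top2b, but outside them in others, as for Itpr3 to Itpr1.

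The families that changed leader did so at different steps. The NC leader already led in both NPC libraries in 18 families, the mESC leader still led there in 18, and in 7 the NPC libraries had another leader or differed. Members that are known as neuronal forms were mostly higher: 116 of 138 tested were higher and 8 were lower, with a median log2 difference of 2.86. The members were listed with earlier results of these data known, so these counts are not independent of the data. Members known as the general or stem cell form were lower in 54 and higher in 29 of 113 tested cases (median -0.54), and members with no such known form were higher in 107 and lower in 62 of 264. Over all tested genes 37.8% were higher and 22.1% lower, so the shares of the last class lay near the background. Of the 8 neuronal forms that were lower, 2 fell furthest and were named after their values were seen. These were Slc2a3, the glucose transporter GLUT3 of neurons, at 1335 and 682 TPM in mESC and 45.8 and 43.3 TPM in NC (log2 difference -4.39, SE 0.30, limma adjusted p = 7.05e-05), and the alpha-tubulin Tuba4a, at 89.0 and 104 TPM in mESC and 5.32 and 5.51 TPM in NC (log2 difference -3.92, limma adjusted p = 2.82e-05). Both genes were low in both NC libraries, although Slc2a3 also differed widely between the mESC libraries.

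Cadherins, which hold neighbouring cells together, had the member that gained the most share, Cdh2. Cdh1 (ENSMUSG00000000303.11, chromosome 8, 106603351 to 106670246), the E-cadherin of epithelia and embryonic stem cells, stood at 358 and 198 TPM in mESC and 8.21 and 28.7 TPM in NC (log2 difference -4.02, SE 0.58, limma adjusted p = 0.00136). Cdh2, the N-cadherin of neural cells, stood at 5.72 and 9.52 TPM in mESC and 182 and 189.9 TPM in NC (log2 difference 4.47, SE 0.22, limma adjusted p = 2.78e-05). The groups did not overlap for either gene, which the choice of families by their leaders makes likely. Cdh2 made up 1.32% and 3.94% of its family total in mESC and 83.4% and 79.3% in NC. Fibroblasts also make N-cadherin, and their markers were higher in NC. The alpha-catenins, which link cadherins to actin, moved with them: Ctnna1 fell from 318 and 278 TPM to 114 and 139.6 TPM (log2 difference -1.23, limma adjusted p = 0.00101). The neuronal Ctnna2 stood at 0.455 and 0.142 TPM in mESC and 96.1 and 83.7 TPM in NC (log2 difference 6.14, limma adjusted p = 1.87e-05), without taking the lead.

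Proteins of synaptic vesicles and of membrane traffic followed. Syp (ENSMUSG00000031144.14, chromosome X, 7638471 to 7653256), the vesicle protein synaptophysin, stood at 2.08 and 1.18 TPM in mESC and 104 and 81.3 TPM in NC (log2 difference 5.16, SE 0.26, limma adjusted p = 2.88e-05), and its relative Sypl at 41.0 and 24.0 TPM in mESC and 16.2 and 14.4 TPM in NC (log2 difference -0.99, limma adjusted p = 0.016). Syp made up 4.81% and 4.67% of its family total in mESC and 73.1% and 79.9% in NC. Its rise far exceeded the fall of Sypl, and the family total was 3.55 times the mESC value. The call of the fall was lost without single libraries: Sypl had limma adjusted p = 0.0564 without NC replicate 1 and 0.087 without NC replicate 2.

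In 3 further membrane families the NC leader overtook an mESC leader that was not called. Ap3b2, the neuronal beta subunit of the adaptor AP-3, rose from 10.3 and 8.14 TPM to 117 and 116 TPM (log2 difference 3.53, SE 0.16, limma adjusted p = 2.25e-05). The general Ap3b1 stood at 59.4 and 46.3 TPM in mESC and 39.3 and 44.2 TPM in NC (limma adjusted p = 0.162, and 0.016 after median-of-ratios scaling). Atp6v0e2 of the proton pump V-ATPase rose from 12.8 and 12.8 TPM to 124 and 114 TPM (log2 difference 3.12, limma adjusted p = 4.17e-05). Its partner Atp6v0e stood at 128 and 102.1 TPM in mESC and 81.6 and 100.05 TPM in NC (limma adjusted p = 0.147, and 0.0112 after that scaling). App, the amyloid precursor protein, rose from 29.2 and 9.32 TPM to 552 and 486 TPM (log2 difference 4.88, limma adjusted p = 0.000219). Its partner Aplp2 stood at 266 and 159 TPM in mESC and 199 and 173 TPM in NC. Of the 13 alternatives Aplp2 was called lower in 1, without mESC replicate 2 (limma adjusted p = 0.0393).

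Proteins that shape the endoplasmic reticulum behaved in 2 ways. The atlastins, GTPases that fuse its tubules, exchanged members at an almost constant total (1.02 times the mESC value): Atl2 fell from 60.0 and 46.7 TPM to 27.9 and 32.6 TPM (log2 difference -0.79, limma adjusted p = 0.00912). Atl1, a gene of hereditary spastic paraplegia, rose from 4.05 and 1.99 TPM to 43.5 and 39.4 TPM (log2 difference 3.45, SE 0.29, limma adjusted p = 0.000152). The reticulons, which bend its membrane, rose as a family to 4.85 times their mESC total, all 4 members higher. Rtn1 led in NC at 334 and 455 TPM, from 10.4 and 6.82 TPM in mESC (log2 difference 5.37, limma adjusted p = 2.82e-05), over Rtn4, the protein Nogo, at 134 and 100.3 TPM in mESC and 191 and 219 TPM in NC (log2 difference 0.81, limma adjusted p = 0.00686).

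Type II topoisomerases, which pass a DNA duplex through another, changed hands with little change in their sum. Top2a (ENSMUSG00000020914.16, chromosome 11, 98992943 to 99024189), the form of dividing cells, stood at 368 and 359 TPM in mESC and 124 and 123 TPM in NC (log2 difference -1.55, SE 0.12, limma adjusted p = 0.000105). Top2b (ENSMUSG00000017485.9, chromosome 14, 16365179 to 16430787), the form of nondividing cells including neurons, stood at 38.7 and 41.7 TPM in mESC and 244 and 199 TPM in NC (log2 difference 2.43, SE 0.15, limma adjusted p = 4.67e-05). Top2b made up 9.52% and 10.4% of its family total in mESC and 66.3% and 61.8% in NC, with 30.2% and 30.8% in NPC, where Top2a was still at 363 and 351 TPM. Since Top2a is 1 of the 8 genes of dividing cells, all lower in NC, its fall is not separate from theirs. The 250 bases before the RefSeq start of each gene, which lies 27 bases inside the deposited start for Top2b and at it for Top2a, are shown because the members of this pair moved in opposite directions at a family total of 0.853 times the mESC value (RefSeq, build GRCm38.p6, gene strand, 5′ to 3′). Capitals mark matches of a pair of motifs on either strand, and a match on the reverse strand is shown as its complement. The first motif is the CCAAT box, searched by the letters of its name. The second is the GC box, searched as GGGCGG.
Top2a (chr11:99024190-99024439, minus strand): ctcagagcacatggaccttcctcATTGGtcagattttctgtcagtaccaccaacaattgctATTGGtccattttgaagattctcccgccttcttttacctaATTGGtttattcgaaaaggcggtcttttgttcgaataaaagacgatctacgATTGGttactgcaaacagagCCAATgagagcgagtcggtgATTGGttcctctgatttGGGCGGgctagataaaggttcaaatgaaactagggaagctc
Top2b (chr14:16364956-16365205, plus strand): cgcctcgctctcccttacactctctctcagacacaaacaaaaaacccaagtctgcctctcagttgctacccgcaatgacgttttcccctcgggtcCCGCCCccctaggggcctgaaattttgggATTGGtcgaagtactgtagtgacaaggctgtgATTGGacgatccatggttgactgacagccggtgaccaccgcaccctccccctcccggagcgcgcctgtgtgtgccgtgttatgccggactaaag

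The window of Top2a held 6 CCAAT boxes and 1 GC box, and that of Top2b 2 CCAAT boxes and 1 GC box. Of 32851 windows of the same length, 33.8% held at least 1 CCAAT box and 32.7% at least 1 GC box, and 0.0578% held 6 or more CCAAT boxes. The 2 motifs do not overlap in letters. The windows held 9 and 15 CpG dinucleotides in Top2a and Top2b, against a median of 6 over all windows. These are matches of letters and not mapped sites.

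Enzymes that act on DNA methylation and on chromatin also changed leader. Tet1 (ENSMUSG00000047146.14, chromosome 10, 62804570 to 62899118), which oxidises methylated cytosine and leads in stem cells, stood at 196 and 199.8 TPM in mESC and 13.6 and 16.6 TPM in NC (log2 difference -3.63, SE 0.17, limma adjusted p = 2.63e-05). Tet3 (ENSMUSG00000034832.14, chromosome 6, 83362373 to 83459084) stood at 8.72 and 8.65 TPM in mESC and 71.6 and 94.6 TPM in NC (log2 difference 3.10, SE 0.18, limma adjusted p = 4.28e-05). Tet3 rose while the family total fell to 0.500 times its mESC value, and Tet2 was lower as well, at 123 and 92.5 TPM in mESC and 56.3 and 61.3 TPM in NC (log2 difference -0.85, limma adjusted p = 0.00762). Among the class I histone deacetylases Hdac1 fell from 198 and 229 TPM to 97.5 and 110.2 TPM (log2 difference -1.03, limma adjusted p = 0.00115). Hdac2 rose from 88.9 and 93.0 TPM to 248 and 252 TPM (log2 difference 1.45, limma adjusted p = 0.000157). Hmgb2, a DNA-bending protein of dividing cells, fell from 359 and 432 TPM to 122 and 98.8 TPM (log2 difference -1.84, limma adjusted p = 0.000198). Hmgb3 rose from 25.4 and 33.2 TPM to 208 and 149.7 TPM (log2 difference 2.56, limma adjusted p = 0.000146). The groups did not overlap for any of these 7 genes, which is likely for genes that were called. Hmgb1 stood at 87.5 and 119 TPM in mESC and 129.9 and 119 TPM in NC and was not called, and the fall of Hmgb2 came with that of the 8 genes of dividing cells.

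In the ASF1 chaperones and the replacement linker histones the leader changed with 1 called member each. Asf1b, the histone chaperone of dividing cells, fell from 50.2 and 69.4 TPM to 13.6 and 16.0 TPM (log2 difference -1.93, limma adjusted p = 0.000354), below Asf1a at 21.8 and 31.8 TPM in mESC and 31.7 and 28.9 TPM in NC. H1f0, the linker histone of differentiated cells, rose from 46.7 and 42.8 TPM to 174 and 172 TPM (log2 difference 1.93, limma adjusted p = 5.61e-05), past H1fx at 101.9 and 109.9 TPM in mESC and 119.8 and 86.6 TPM in NC. Among the cohesin subunits the meiotic Stag3 fell from 98.0 and 44.6 TPM to 8.47 and 15.0 TPM (log2 difference -2.45, limma adjusted p = 0.0025). Stag2 stood at 32.1 and 36.9 TPM in mESC and 49.5 and 46.2 TPM in NC (log2 difference 0.46, limma adjusted p = 0.0331). The rise of Stag2 was lost after median-of-ratios scaling (limma adjusted p = 0.46) and without mESC replicate 1, NC replicate 1 or NC replicate 2 (limma adjusted p = 0.0736, 0.0911 and 0.0565).

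The BAF remodeller has 8 listed subunit families, and 3 of them are named by the rule. Each of the 8 had at least 1 called member, which is near the background, since only 12 of all 176 families had none. Actl6b, the neuronal BAF53B, stood at 0.257 and 0.335 TPM in mESC and 96.5 and 88.0 TPM in NC (log2 difference 6.17, SE 0.23, limma adjusted p = 1.57e-05), and Actl6a, the BAF53A of progenitors, at 151 and 181 TPM in mESC and 83.7 and 96.8 TPM in NC (log2 difference -0.87, limma adjusted p = 0.00289). Actl6b thereby made up 0.169% and 0.185% of its family total in mESC and 53.6% and 47.6% in NC, so that the pair stood about level in NC, with Actl6b ahead in replicate 1 and Actl6a in replicate 2. Ss18l1, the neuronal CREST, rose from 5.02 and 3.90 TPM to 55.4 and 48.7 TPM (log2 difference 3.29, limma adjusted p = 5.97e-05). Ss18 fell from 75.2 and 93.2 TPM to 59.5 and 57.0 TPM (log2 difference -0.52, limma adjusted p = 0.0276). The fall of Ss18 was lost without mESC replicate 2, NC replicate 1 or NC replicate 2 (limma adjusted p = 0.0816, 0.0669 and 0.0932). Smarcc2, which encodes BAF170, rose from 26.6 and 18.2 TPM to 208 and 207 TPM (log2 difference 3.18, limma adjusted p = 4.58e-05). The gene it overtook, Smarcc1, which encodes BAF155, stood at 164 and 189 TPM in mESC and 176 and 187 TPM in NC. The general subunits were still present in NC in these 3 families.

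In the cytoskeleton the motor gene Kif5c and the tubulin gene Tuba1a overtook general members that were not called. Kif5c, a neuronal heavy chain of kinesin-1, rose from 10.4 and 8.41 TPM to 283 and 286 TPM (log2 difference 4.79, SE 0.15, limma adjusted p = 1.02e-05). The general Kif5b stood at 83.6 and 82.2 TPM in mESC and 82.6 and 92.3 TPM in NC, with a 95% interval of its log2 difference from -0.24 to 0.39. Of the light chains Klc1 rose from 92.8 and 66.4 TPM to 649.6 and 586 TPM (log2 difference 2.96, limma adjusted p = 5.96e-05). Klc3 fell from 27.0 and 16.8 TPM to 8.996 and 4.502 TPM (log2 difference -1.59, limma adjusted p = 0.00864), a call lost without mESC replicate 1 (limma adjusted p = 0.0795). The alpha-tubulin Tuba1a rose from 441 and 748 TPM to 6157 and 5059.9 TPM (log2 difference 3.28, limma adjusted p = 0.000176). The gene it overtook, Tuba1b, stood at 1062 and 1462 TPM in mESC and 1045 and 812 TPM in NC. The coding sequences of these tubulins share an identical run of 281 bases, so their split is uncertain.

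Actin regulators differed as well. Evl, an Ena/VASP protein that extends actin filaments, rose from 31.2 and 33.1 TPM to 198 and 175 TPM (log2 difference 2.50, limma adjusted p = 3.86e-05). The gene it overtook, Enah, stood at 160.4 and 170.4 TPM in mESC and 122 and 139 TPM in NC (limma adjusted p = 0.0741, and 0.00828 after median-of-ratios scaling). The actin-sequestering Tmsb4x rose from 501 and 663 TPM to 3296 and 2997 TPM (log2 difference 2.44, limma adjusted p = 0.000113). The gene it overtook, Tmsb10, stood at 941 and 1299 TPM in mESC and 1746 and 2033 TPM in NC (log2 difference 0.77, limma adjusted p = 0.0139). The smaller rise of Tmsb10 was lost after median-of-ratios scaling (limma adjusted p = 0.151) and without mESC replicate 1 or NC replicate 2 (limma adjusted p = 0.0665 and 0.0764). Myh10, the nonmuscle myosin IIB of brain, rose from 57.3 and 68.1 TPM to 190.2 and 196 TPM (log2 difference 1.61, limma adjusted p = 0.000154). Myh9 stood at 289 and 208 TPM in mESC and 106 and 238 TPM in NC and was called lower in 1 of the 13 alternatives, without NC replicate 2 (limma adjusted p = 0.0276), the NC library in which it was high, while Myh14 fell from 19.1 and 12.1 TPM to 1.78 and 1.10 TPM (log2 difference -2.75, limma adjusted p = 0.000496). Fibroblasts and smooth muscle cells also use these actin regulators, and the 10 markers of those cells were higher in NC. Of the plastins, which bundle actin, Pls3 rose from 16.6 and 15.7 TPM to 43.3 and 39.4 TPM (log2 difference 1.30, limma adjusted p = 0.000766). Pls1 fell from 10.4 and 8.34 TPM to 2.65 and 1.55 TPM (log2 difference -1.76, limma adjusted p = 0.0031).

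In 3 families of RNA-binding proteins another member took the lead while the mESC leader did not fall. Celf3 stood at 1.31 and 0.902 TPM in mESC and 234 and 246 TPM in NC (log2 difference 6.84, SE 0.21, limma adjusted p = 1.01e-05), and 5 of 6 tested CELF proteins, regulators of splicing and translation, were higher, all but Celf1 at 81.2 and 91.4 TPM in mESC and 77.0 and 88.7 TPM in NC. Elavl3, the neuronal protein HuC that stabilises mRNAs, rose from 10.01 and 9.22 TPM to 266 and 257 TPM (log2 difference 4.63, limma adjusted p = 2.03e-05). The gene it overtook, Elavl1, stood at 36.8 and 47.0 TPM in mESC and 61.9 and 83.7 TPM in NC (log2 difference 0.78, limma adjusted p = 0.0145). The smaller rise of Elavl1 was lost after median-of-ratios scaling (limma adjusted p = 0.0898) and without mESC replicate 1 or NC replicate 2 (limma adjusted p = 0.0852 and 0.0714). Msi1, a translational regulator of neural progenitors, rose from 29.4 and 26.9 TPM to 219 and 199.6 TPM (log2 difference 2.85, limma adjusted p = 2.88e-05). The gene it overtook, Msi2, stood at 50.5 and 57.5 TPM in mESC and 92.9 and 133 TPM in NC. In NPC Msi1 stood at 258 and 305 TPM, above its level in both other stages. The PTB repressors did not quite change leader: Ptbp1 fell from 546 and 642 TPM to 243 and 268 TPM (log2 difference -1.21, limma adjusted p = 0.000613). Ptbp2, which takes over in neurons, rose from 33.7 and 36.4 TPM to 210.3 and 258 TPM (log2 difference 2.7, limma adjusted p = 4.17e-05).

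Metabolic families changed leader in 2 of 29 cases and had opposite calls in 12. Hk2 (ENSMUSG00000000628.9, chromosome 6, 82725025 to 82774454), the hexokinase of rapidly growing cells, stood at 290.3 and 261 TPM in mESC and 22.3 and 24.0 TPM in NC (log2 difference -3.52, SE 0.17, limma adjusted p = 2.66e-05). Hk1 (ENSMUSG00000037012.17, chromosome 10, 62268855 to 62379908), the main hexokinase of brain, stood at 30.6 and 17.8 TPM in mESC and 61.0 and 47.6 TPM in NC (log2 difference 1.17, SE 0.29, limma adjusted p = 0.0123). Hk1 thus led in NC at a family total of only 0.260 times the mESC value, and its call was lost without mESC replicate 2 or NC replicate 1 (limma adjusted p = 0.0702 and 0.0833). The pyruvate dehydrogenase kinase Pdk1 fell from 186 and 141 TPM to 10.4 and 1.69 TPM (log2 difference -4.88, limma adjusted p = 0.000751). Pdk2 rose from 6.70 and 6.82 TPM to 26.1 and 19.9 TPM (log2 difference 1.62, limma adjusted p = 0.0011). The thymidine kinase of dividing cells, Tk1, fell with the other genes of such cells, from 106 and 116 TPM to 38.2 and 48.6 TPM (log2 difference -1.34, limma adjusted p = 0.000634), to about the level of the mitochondrial Tk2 at 26.5 and 21.3 TPM in mESC and 48.9 and 44.97 TPM in NC (log2 difference 0.95, limma adjusted p = 0.00321).

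A family of growth regulators and a family of ubiquitin hydrolases follow among the families named by rule. Mycn fell from 169.9 and 216 TPM to 47.0 and 39.1 TPM (log2 difference -2.13, limma adjusted p = 0.000187). Mycl rose from 7.76 and 17.1 TPM to 94.4 and 66.8 TPM (log2 difference 2.68, SE 0.35, limma adjusted p = 0.00088), with its highest levels in NPC at 135 and 140.1 TPM. Uchl1, an abundant neuronal hydrolase, led at both ends and rose from 198 and 187 TPM to 621 and 432 TPM (log2 difference 1.42, limma adjusted p = 0.00099). Uchl3 fell from 77.1 and 81.7 TPM to 52.4 and 42.3 TPM (log2 difference -0.74, limma adjusted p = 0.00654). The other 18 families that changed leader had smaller shifts, from 5.58 to 27.95 percentage points for the member that gained most. In 3 of them, named after their values were seen, both leaders were called. The Polycomb reader Cbx7 gave way to Cbx6 (272 and 214 TPM in mESC and 30.5 and 82.4 TPM in NC, against 48.2 and 39.4 TPM in mESC and 78.2 and 84.7 TPM in NC). The membrane protein Reep4 gave way to Reep1 (88.5 and 50.9 TPM in mESC and 23.3 and 35.7 TPM in NC, against 5.70 and 5.198 TPM in mESC and 127 and 89.3 TPM in NC). The histone chaperone Nap1l1 gave way to Nap1l4 (195 and 266 TPM in mESC and 156 and 122 TPM in NC, against 124 and 142 TPM in mESC and 197 and 179 TPM in NC).

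Beyond the listed families, paralogues were paired by sequence. Among 14241 tested genes with a translated coding transcript, 1484 pairs were each other's best match with at least 50% identity. In 166 of these pairs (11.2%) 1 gene was higher and the other lower in NC, in 467 both were higher, in 123 both were lower, in 545 only 1 was called and in 183 neither. Over all tested genes 37.8% were higher and 22.1% lower, so unrelated genes would often have opposite calls as well. The pairs were not compared with unrelated genes, and their count is not a sign of more switches than elsewhere. Both genes differed by at least 2-fold in 87 pairs, and in 69 of these each gene also reached 10 TPM where it was higher. Only 28 of the 166 lie within a listed family, and 172 pairs were opposite after median-of-ratios scaling. At least 70% identity was reached by 656 pairs, with 57 of them opposite.

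**Figure D2:**
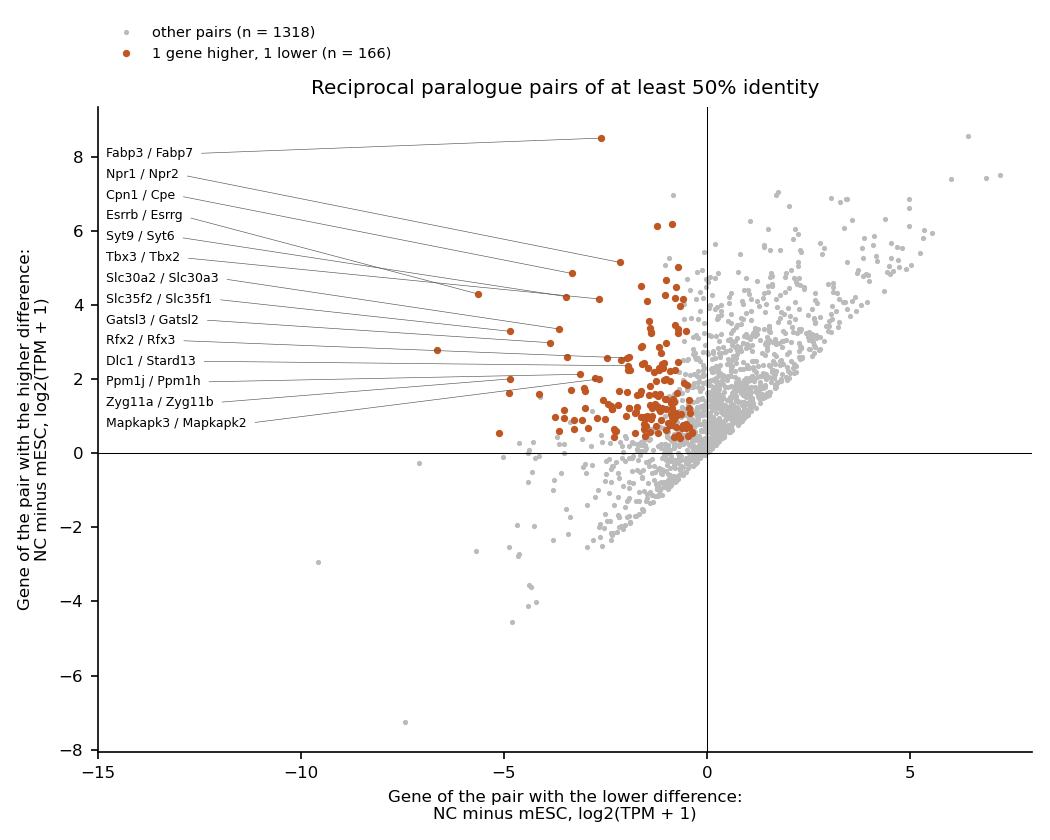
NC minus mESC difference on the log2(TPM + 1) scale of the 2 genes of each of 1484 paralogue pairs of at least 50% identity, with the gene of the lower difference on the x axis and that of the higher difference on the y axis (1 point per pair). The 166 pairs with 1 gene higher and 1 lower (orange) lie at the upper left, and the 14 labelled pairs are among the 15 in which the gene that moved less still moved most, with Esrrb and Esrrg first.

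The pair that moved furthest on both sides was of orphan nuclear receptors. Esrrb (ENSMUSG00000021255.16, chromosome 12, 86361117 to 86521628), a factor of the pluripotency network, stood at 564 and 546 TPM in mESC and 12.3 and 8.44 TPM in NC (log2 difference -5.63, SE 0.21, limma adjusted p = 1.55e-05). Esrrg (ENSMUSG00000026610.12, chromosome 1, 187608791 to 188214885), which serves oxidative metabolism in neurons, stood at 0.0102 and 0.0462 TPM in mESC and 21.6 and 16.9 TPM in NC (log2 difference 4.29, SE 0.26, limma adjusted p = 5.01e-05). The proteins are 73.6% identical. The level of Esrrg in NC remained far below that of Esrrb in mESC, and in NPC both were low (1.29 and 1.47 TPM and 3.60 and 4.71 TPM). In 2 other pairs of transcription factors the directions were the same. Of the T-box factors, Tbx3 fell from 38.2 and 20.4 TPM to 1.51 and 7.49 TPM (log2 difference -2.65, limma adjusted p = 0.00868). Tbx2 rose from 0.481 and 0.383 TPM to 28.9 and 20.8 TPM (log2 difference 4.16, limma adjusted p = 0.00011). Of the RFX factors, regulators of cilia genes, Rfx2 fell from 32.2 and 21.1 TPM to 6.44 and 5.45 TPM (log2 difference -1.97, limma adjusted p = 0.00127). Rfx3 rose from 3.72 and 2.93 TPM to 21.2 and 28.3 TPM (log2 difference 2.57, limma adjusted p = 0.000222). Tbx3, a further stem cell factor, lost its call without mESC replicate 1 (limma adjusted p = 0.0966).

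Transporters and secreted or vesicle proteins made up 5 of the 15 pairs. In the synaptotagmins, calcium sensors of vesicle fusion, Syt9 fell from 22.8 and 18.7 TPM to 1.19 and 0.763 TPM (log2 difference -3.46, limma adjusted p = 0.00011). Syt6 rose from 0.0866 and 0.105 TPM to 25.8 and 14.6 TPM (log2 difference 4.22, limma adjusted p = 0.000276). In the zinc transporters Slc30a2 stood at 11.6 and 11.8 TPM in mESC and 0 and 0.0394 TPM in NC, and Slc30a3, which loads zinc into synaptic vesicles of glutamatergic neurons, at 4.14 and 1.45 TPM in mESC and 31.4 and 39.3 TPM in NC (log2 difference 3.35, limma adjusted p = 0.000662). Of the carboxypeptidases Cpn1 stood at 10.5 and 9.57 TPM in mESC and 0.209 and 0 TPM in NC and Cpe, which processes neuropeptides, at 18.6 and 9.05 TPM in mESC and 473 and 343 TPM in NC (log2 difference 4.85, limma adjusted p = 7.78e-05). The solute carriers Slc35f2 and Slc35f1 changed by -4.86 and 3.29 (limma adjusted p = 6.54e-05 and 0.000164), from 73.5 and 42.4 TPM to 0.806 and 1.11 TPM and from 0.397 and 0.460 TPM to 16.0 and 10.4 TPM. Fabp3, a fatty acid-binding protein of muscle, fell from 268 and 130.3 TPM to 20.8 and 41.8 TPM (log2 difference -2.62, limma adjusted p = 0.00313). Fabp7, of radial glia and astrocytes, is at 0 in the tables of both mESC libraries. It stood at 792 TPM in NC replicate 1 and 164 TPM in NC replicate 2. Fabp7 is itself 1 of the astrocyte markers and makes up most of their sum in NC replicate 1. Gfap, which was too low to be tested, shared this order. Another called member, the glutamate transporter Slc1a2, stood at 64.8 and 75.4 TPM in NC and did not. The other members of the list are not given singly here.

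Signalling proteins supplied most of the rest. Of the natriuretic peptide receptors, which make cyclic GMP, Npr1 fell from 11.7 and 14.3 TPM to 1.80 and 2.55 TPM (log2 difference -2.14, limma adjusted p = 0.000826). Npr2 rose from 2.82 and 1.18 TPM to 97.3 and 105 TPM (log2 difference 5.14, limma adjusted p = 3.63e-05). Of the kinases downstream of p38, Mapkapk3 fell from 60.2 and 48.6 TPM to 5.80 and 10.1 TPM (log2 difference -2.66, limma adjusted p = 0.000359). Mapkapk2 rose from 29.2 and 26.9 TPM to 113 and 117 TPM (log2 difference 2.00, limma adjusted p = 5.53e-05). Of the phosphatases, Ppm1j fell from 83.7 and 42.6 TPM to 3.52 and 9.81 TPM (log2 difference -3.12, limma adjusted p = 0.00327). Ppm1h rose from 2.52 and 4.18 TPM to 16.8 and 18.6 TPM (log2 difference 2.13, limma adjusted p = 0.00077). The arginine sensor gene Gatsl3 fell from 70.2 and 85.4 TPM to 3.87 and 4.97 TPM (log2 difference -3.86, limma adjusted p = 4.17e-05). Its relative Gatsl2 rose from 3.41 and 4.55 TPM to 42.8 and 33.7 TPM (log2 difference 2.98, limma adjusted p = 9.22e-05). Groups did not overlap for any of these 8 genes, which their choice by opposite calls makes likely. The share of all genes without overlap is not given here.

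A further 2 pairs act on the cytoskeleton and on protein turnover. The GTPase-activating protein Dlc1 fell from 111 and 103 TPM to 35.7 and 20.2 TPM (log2 difference -1.95, limma adjusted p = 0.000973). Stard13 rose from 2.33 and 1.24 TPM to 10.9 and 15.4 TPM (log2 difference 2.36, limma adjusted p = 0.000768). Zyg11a, a substrate receptor of a ubiquitin ligase, stood at 35.4 and 25.1 TPM in mESC and 0 and 0.153 TPM in NC (log2 difference -4.84, limma adjusted p = 3.93e-05). Zyg11b rose from 16.1 and 14.4 TPM to 71.1 and 57.7 TPM (log2 difference 2.00, limma adjusted p = 0.000181).

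Genes of equal level were those whose 95% interval of the NC minus mESC difference lay wholly within -1 and 1 on the log2(TPM + 1) scale, among genes with a mean of at least 10 TPM over the 4 libraries. The rule held for 3677 of 11656 such genes (31.5%), of which 3353 are protein coding. A p that misses the threshold is another matter: 4076 genes of at least 10 TPM were not called, and 1020 of them were not equal by the rule, because their interval was too wide. Conversely 621 genes were both called and equal, with small differences measured closely. The count was 949 with the limit at 0.58. After median-of-ratios scaling 3677 genes met the rule again, but 2721 were the same genes, and of the genes equal as deposited 924 were lower and 5 higher by limma, with a median difference of -0.27. Equality thus depends on the scaling, and the genes named here as equal are so for TPM as deposited.

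The 15 equal genes of highest level included Actb, Eef2, Rpl41, Rpl39, Rps7, Fau, Ubb, Tpt1, Cfl1, Cox4i1, Hnrnpa2b1 and Tuba1b. Actb, cytoplasmic beta-actin, stood at 3216 and 4722 TPM in mESC and 3291 and 4024 TPM in NC, with a difference of -0.10 (95% interval -0.66 to 0.46). Hnrnpa2b1, an RNA-binding protein, stood at 1116 and 1196 TPM in mESC and 1058 and 1066 TPM in NC (difference -0.12, 95% interval -0.45 to 0.21). Tpt1, a translation-associated tumour protein, stood at 1176 and 1271 TPM in mESC and 1098 and 1213 TPM in NC (95% interval -0.44 to 0.27). Rpl39, Cox4i1, Fau and Rps7 were equal by the rule and also lower by limma (adjusted p = 0.0293, 0.0173, 0.0384 and 0.0165), but these calls were lost for Rpl39 without mESC replicate 1, mESC replicate 2 or NC replicate 2 (limma adjusted p = 0.117, 0.0514 and 0.0985), for Cox4i1 without mESC replicate 2 or NC replicate 1 (limma adjusted p = 0.0625 and 0.0504), for Rps7 without mESC replicate 1, mESC replicate 2 or NC replicate 2 (limma adjusted p = 0.0635, 0.0674 and 0.0609), and for Fau without any of the 4 (limma adjusted p from 0.0634 to 0.122). Equality held in all 4 fits without 1 library for Ubb, Tpt1 and Hnrnpa2b1. Actb was no longer equal without mESC replicate 1 or NC replicate 2, and Tuba1b without mESC replicate 1 or NC replicate 1. Cfl1 was called higher without mESC replicate 2 (limma adjusted p = 0.0396), and without NC replicate 1 Eef2 was called lower (limma adjusted p = 0.0333) and Gm28437 higher (limma adjusted p = 0.0369). The remaining 3 were Gm28437, which is a copy of mitochondrial sequence on chromosome 1, and Rn7s1 and Rn7s2, copies of the signal recognition particle RNA. Reads of these near-identical copies are not separable in the tables, and all 37 mitochondrial genes are listed at 0 in all libraries.

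Reference genes, used to normalise quantitative PCR, were equal in 14 of 29 cases, higher in 5, lower in 9, and neither in 1 (Gpi1). Against a median of 0.31 over all genes their median log2 difference was -0.23. Psmb2 stood at 182 and 210.3 TPM in mESC and 199.6 and 198 TPM in NC (95% interval -0.30 to 0.35), Psmb4 at 257 and 314 TPM in mESC and 284 and 281 TPM in NC (95% interval -0.35 to 0.33) and Chmp2a at 133 and 113 TPM in mESC and 127 and 115 TPM in NC (95% interval -0.36 to 0.32), so that their groups overlapped. Gapdh, a glycolytic enzyme, fell from 4547 and 4153 TPM to 1441 and 982 TPM (log2 difference -1.87, SE 0.22, limma adjusted p = 0.000609). Ppia fell from 1304 and 1833 TPM to 591 and 737 TPM (log2 difference -1.23, limma adjusted p = 0.00321). Also lower were Rplp0, Rpl13a, Tfrc, Ipo8, Pgk1 and Eef1a1. Ywhaz, an adaptor of the 14-3-3 family, rose from 178 and 216 TPM to 339.9 and 330.2 TPM (log2 difference 0.77, limma adjusted p = 0.00365), and B2m, Reep5 and Emc7 were higher too.

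Not all of these reference calls were steady. Ywhaz and Emc7 lost theirs after median-of-ratios scaling (limma adjusted p = 0.0607 and 0.109), while Gusb, Sdha, Polr2a, Rab7 and Gpi1 became lower (limma adjusted p = 0.0121, 0.00674, 0.023, 0.0211 and 0.0137). Pgk1 lost its call without mESC replicate 1 (limma adjusted p = 0.113) or NC replicate 2 (limma adjusted p = 0.0668), Eef1a1 without mESC replicate 1 (limma adjusted p = 0.165), mESC replicate 2 (limma adjusted p = 0.155) or NC replicate 2 (limma adjusted p = 0.0936), and B2m without NC replicate 2 (limma adjusted p = 0.0529). Emc7 lost its call without mESC replicate 2 (limma adjusted p = 0.106), NC replicate 1 (limma adjusted p = 0.0679) or NC replicate 2 (limma adjusted p = 0.103). Without mESC replicate 2 Sdha was called lower and Vcp higher (limma adjusted p = 0.0389 and 0.0424), and Polr2a was called lower without NC replicate 2 (limma adjusted p = 0.0393). Actb, Gapdh and Eef1a1 have processed pseudogenes, and the sources used here do not give how shared reads were counted.

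**Figure D3:**
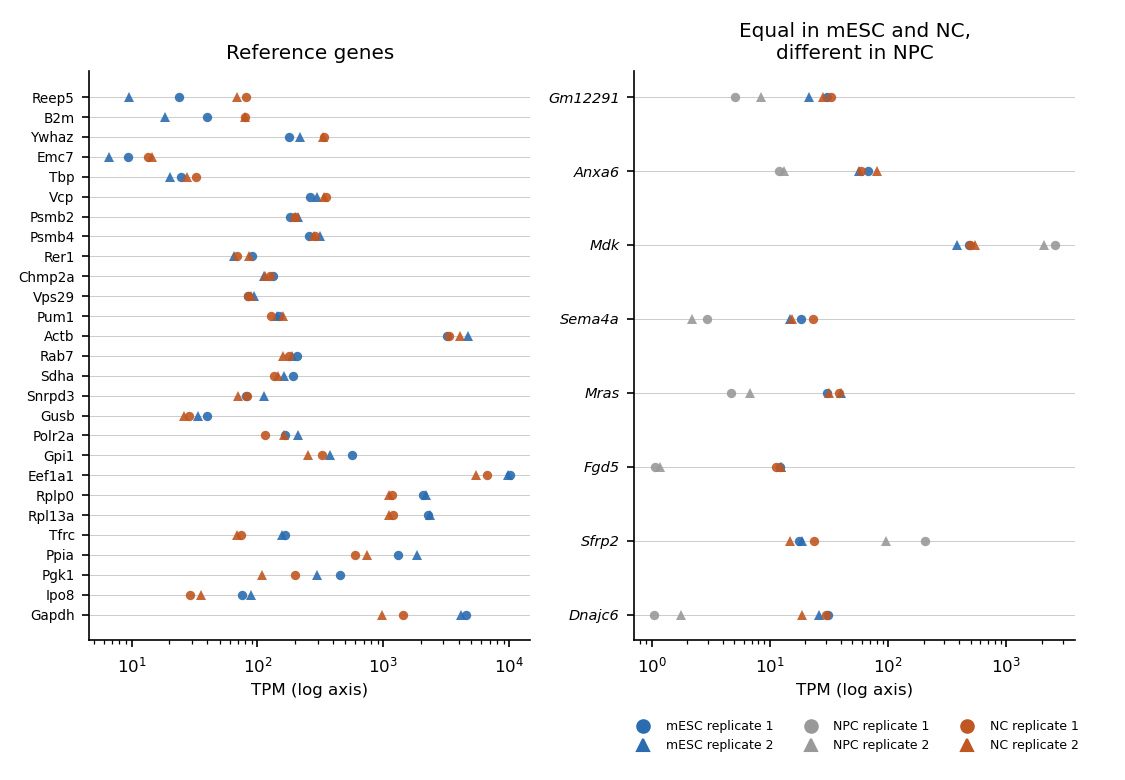
TPM on log axes in single libraries, for 27 of the 29 reference genes in mESC and NC, ordered by their difference from Gapdh at the bottom to Reep5 at the top (left), and for 8 genes of equal level in mESC and NC that differ in NPC (right). Each point is 1 library, with colour for stage and shape for replicate. For Mdk and Sfrp2 the NPC points lie to the right of the other 4, and for the other 6 genes to the left.

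Protein complexes were compared as 283 tested members, of which 158 were equal. The core particle of the proteasome had 13 of 14 members equal and a median difference of -0.09, and its regulatory particle 17 of 18 and -0.12. The Integrator complex, which processes RNA polymerase II transcripts, had 10 of 11 equal, the vesicle coat COPI and the COP9 signalosome 7 of 9 each, and eIF3 10 of 13, against 31.5% of all genes of at least 10 TPM. The core proteasome genes summed to 3263 and 4009 TPM in mESC and 3481 and 3544 TPM in NC, so the groups overlapped. After median-of-ratios scaling 11 of 14 core and 13 of 18 regulatory members were equal, and 8 of 9 in both COPI and the COP9 signalosome. Integrator had only 5 of 11 equal and 6 lower with that scaling, and eIF3 5 of 13 equal and 10 lower.

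Dynactin and the MCM helicase changed as a whole, and other complexes in part. All 9 dynactin genes, partners of the motor dynein, were higher (median 1.23), among them Dctn1 from 122 and 106 TPM to 285 and 292 TPM and Actr1a from 78.5 and 86.3 TPM to 289 and 244 TPM (limma adjusted p = 0.000307 and 0.000175). The exocyst, which tethers vesicles to the plasma membrane, had 5 of 8 higher, ESCRT 14 of 22 and the V-ATPase 10 of 18, against 37.8% of all tested genes. After median-of-ratios scaling the exocyst still had 5 higher, while ESCRT had 10 higher and 2 lower and the V-ATPase 6 higher and 3 lower. Dynactin had 7 of 9 higher with it. The largest rises in the V-ATPase and ESCRT were of Atp6v1g2, a V-ATPase subunit of neurons, which rose from 1.41 and 0.641 TPM to 41.5 and 27.3 TPM (log2 difference 4.12, limma adjusted p = 9.83e-05), and of the ESCRT subunit Mvb12b, from 13.7 and 8.18 TPM to 126 and 117 TPM (log2 difference 3.39, limma adjusted p = 7.99e-05). In the opposite direction all 6 genes of the MCM replication helicase were lower (median -2.67), with Mcm5 at 407 and 479 TPM in mESC and 37.8 and 54.3 TPM in NC (log2 difference -3.26, limma adjusted p = 4.80e-05). The genes of dividing cells were lower in the same libraries. The nuclear pore had 20 of 30 lower, the RNA exosome 7 of 10, the chaperonin CCT 7 of 8 and the tRNA synthetases 9 of 19, against 22.1% of all tested genes. Counted over all members, called or not, 11 of 30 in the nuclear pore and 5 of 8 in CCT were equal by the rule. Of the exosome, which degrades RNA, Exosc5 fell furthest, from 138 and 136 TPM to 19.5 and 23.9 TPM (log2 difference -2.61, limma adjusted p = 4.13e-05).

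Mixed complexes stood between these. Mediator, the bridge between factors and RNA polymerase II, had 16 of 30 genes equal, against 31.5% of all genes of at least 10 TPM. By limma 11 were higher and 4 lower (a gene can be both called and equal). Of all tested genes 37.8% were higher and 22.1% lower, so the share of higher Mediator genes was near the background. Med27 rose from 27.5 and 29.9 TPM to 70.02 and 79.4 TPM (log2 difference 1.35, limma adjusted p = 0.000524). RNA polymerase II itself had 6 of 12 equal and 4 lower, with Polr2e falling from 503 and 567 TPM to 212 and 188 TPM (log2 difference -1.42, limma adjusted p = 0.000514). After median-of-ratios scaling 7 Mediator genes were higher and 6 lower.

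**Figure D4:**
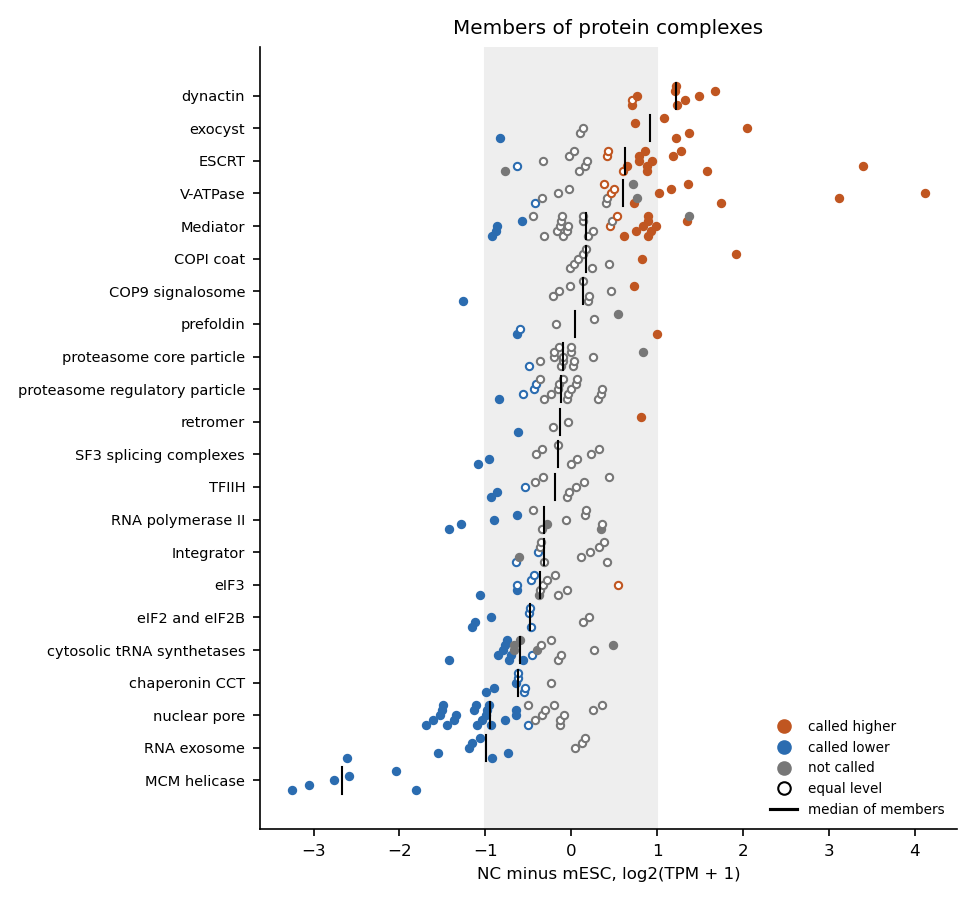
NC minus mESC difference on the log2(TPM + 1) scale of the tested members of 22 protein complexes (1 point per gene, colour for the limma call, open points for genes of equal level, black bar for the median, grey band for -1 to 1). The 2 proteasome particles lie within or close to the band, dynactin lies to the right of 0 and the MCM helicase to the left of -1.

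An equal level at both ends did not always mean an equal level in between. Of the 3677 equal genes 88 were higher in NPC than in both other stages and 81 were lower, each by limma in both contrasts, and 2595 were called in none of the 3 contrasts. These contrasts share the NPC libraries. Mdk (ENSMUSG00000027239.13, chromosome 2, 91929805 to 91932297), which encodes the growth factor midkine, stood at 488 and 385 TPM in mESC, 2599 and 2092 TPM in NPC and 498 and 544 TPM in NC. Sfrp2, a secreted modulator of WNT signalling, stood at 17.5 and 18.8 TPM in mESC, 206 and 95.8 TPM in NPC and 23.5 and 14.8 TPM in NC. The other 6 genes chosen by the rule were lowest in NPC.

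Dnajc6, which encodes auxilin, the protein that uncoats clathrin vesicles in neurons, had the largest dip, at 30.8 and 25.9 TPM in mESC, 1.053 and 1.76 TPM in NPC and 30.2 and 18.9 TPM in NC (NC minus mESC -0.23, 95% interval -0.94 to 0.47). Anxa6, a calcium-dependent membrane protein, stood at 67.9 and 56.5 TPM in mESC, 11.9 and 13.2 TPM in NPC and 58.5 and 80.0 TPM in NC, and Mras, a RAS relative, at 30.5 and 39.9 TPM in mESC, 4.71 and 6.78 TPM in NPC and 38.5 and 31.8 TPM in NC. Fgd5, an exchange factor for CDC42 known from endothelium, stood at 12.3 and 12.5 TPM in mESC, 1.07 and 1.18 TPM in NPC and 11.3 and 12.4 TPM in NC. Its mESC and NC values were nearly the same, while the endothelial marker list summed to 48.9 and 29.9 TPM in mESC and 2.98 and 10.3 TPM in NC. The semaphorin Sema4a stood at 18.4 and 14.8 TPM in mESC, 2.95 and 2.18 TPM in NPC and 23.2 and 15.4 TPM in NC, and the processed pseudogene Gm12291, whose parent gene may share its reads, at 30.4 and 21.5 TPM in mESC, 5.12 and 8.40 TPM in NPC and 32.8 and 27.9 TPM in NC. Equality was lost for Dnajc6 in 3, for Sema4a in 3, for Gm12291 in 3 and for Sfrp2 in all 4 of the fits that leave out 1 mESC or NC library, without a call in either direction.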

How the data were processed

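RNA of 6 libraries (mESC, NPC and NC, 2 each) was enriched for poly(A), depleted of rRNA and sequenced on an Ion Proton, per the labels' protocols. Per the submitters' processing notes, the tools were STAR 2.7.9a, StringTie 2.1.5, cutadapt 3.4, FastQC, DESeq2 and R 4.0.3, on the build mm10. The sources used here give neither the annotation release nor the strand setting. The deposited gene tables hold coverage, FPKM and TPM, per the file headers, and no counts. The TPM values the authors deposited were used for all levels and tests. The FPKM values and the coverage signal the authors deposited served only to estimate aligned bases. TPM keeps no depth, and mitochondrial genes are listed at 0.

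Rows of one gene ID were summed. A gene that reached 1 TPM in 2 or more of the 6 libraries was tested on log2(TPM + 1), a scale that understates changes of low genes, with limma 3.58.1 in R 4.3.3 (all 6 libraries in the fit, trend, two-sided, Benjamini-Hochberg over all tested genes, threshold 0.05). The script was tested on simulated data. Equal level means a 95% interval within 1 log2 unit of 0 and a mean of at least 10 TPM. For pairs, 1 complete coding transcript of each gene in GENCODE vM21 was translated and compared by blastp 2.17.0. The transcript annotated as principal was preferred, and length decided between equals. The pairing replaced a planned comparison of a protein table, which was not used here. Promoter windows are RefSeq's for GRCm38.p6.

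The groups come from the sample titles. Named genes were chosen by rule: the 8 largest rises and falls with 10 TPM, the leaders of up to 25 families by change of share, 12 further families with opposite calls, 15 pairs, the 15 highest equal genes and 8 equal genes that differ in NPC, reference genes, complex members with 2-fold changes, and markers. The members and lists were chosen with earlier results of these data known. Alternatives were another pseudocount, 2 other filters, 2 other scalings, 2 other fits, the replicate block, each mESC or NC library left out, and 1 combination added after seeing the data. Some genes that the rule names are not reported here, and the figures leave them out.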

Additional observations from a re-analysis of the deposited data

How the results depend on the processing

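Over 13 alternatives the count of called genes ranged from 9499 to 11989 against 12118, and the opposite families from 40 to 63 against 53. Leaving out 1 mESC or NC library gave 9499 to 11187 called genes (5987 to 7147 higher, 3512 to 4040 lower), 40 to 49 opposite families, 45 to 51 changes of leader, 118 to 140 opposite pairs, 2999 to 3428 equal genes and 135 to 155 equal complex members; an arm of 1 library is then assumed to vary like the other groups. The counts that moved by over 1.5 times came from stricter definitions: 949 equal genes and 59 equal complex members with the limit at 0.58, and 57 opposite pairs at 70% identity. Quantile normalization turned the sign of 3 called genes that were also equal, Rpl39 (0.065), Cox4i1 (0.049) and Fau (0.12); the cause was not tested. Same-numbered replicates did not deviate together (correlations 0.045, -0.082 and -0.070 for mESC with NPC, mESC with NC and NPC with NC). These values cannot show whether same-numbered libraries came from the same culture, and the main fit did not pair them. With the replicate block 11575 genes were called (7339 higher, 4236 lower), with 51 opposite families, 43 changes of leader, 148 opposite pairs, 3393 equal genes and 147 equal complex members. Of the named genes, Stag2 and Fau lost their calls with it, Afp gained one and Dnajc6 was no longer equal. With only the mESC and NC libraries in the fit, 10702 genes were called (6836 higher, 3866 lower), with 44 opposite families and 43 changes of leader. That fit gave 122 opposite pairs, 3042 equal genes and 141 equal complex members. The planned comparison of a protein table was not run. Low genes limit precision, since TPM keeps no depth.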
